A study of Mus musculus with 8 samples.

Results

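The genes described here encode the proteins of the cytosolic ribosome, measured by bulk RNA-seq in CD8 T cells from mouse liver. They were chosen by name, as gene symbols beginning Rpl or Rps followed by a number (with an optional a, x, y or l, and further digits), plus Rplp0, Rplp1, Rplp2 and Rpsa, leaving out names with the pseudogene suffix. This gave 84 of the 22609 genes counted. Of these, 73 had at least 10 reads in at least 4 of the 8 libraries and were kept, 42 for the large and 31 for the small subunit, and 11 had fewer reads. The 31 include Rps4y2, which is annotated as a pseudogene with no coding sequence. It matches the name rule and stayed in the score and the tests. The cells came from livers of male C57BL/6J mice, 6 weeks old, that had received an activating antibody to CD137 (αCD137), a receptor that costimulates T cells, on days 0, 3 and 6, with livers taken on day 8. All cells were live and CD45+, carried TCRβ and CD8α, and lacked CD4, MHCII and NK1.1. They were also KLRG1+ and CD127-, the surface profile of effector cells. They were divided by surface CD11c, an integrin chain best known from dendritic cells, into a CD11c+ and a CD11c- group with 4 libraries each. No untreated group was part of the comparison, so every library came from antibody-treated mice. Whether the 4 libraries of a group stand for separate mice is not in the labels, and p-values here reflect the spread between libraries, which may be technical.

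A ribosome joins a small subunit, which reads the messenger RNA, to a large subunit, which forms the peptide bond. Their proteins are needed in near-equal numbers, and their messages are among the most abundant in dividing cells. Many of these messages begin with a C followed by a run of pyrimidines, the 5′ terminal oligopyrimidine (TOP) motif, through which mTORC1 and the repressor LARP1 control their translation. Activated CD8 T cells make many ribosomes as they grow and divide, and the gene family has left many near-identical processed pseudogenes in mammalian genomes.

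The start sites of several members are shown because the TOP motif is the feature by which these messages are best known. RefSeq promoters of build GRCm38.p6 were matched by symbol for 63 of the 84 members. The search asked whether the annotated start is a C followed by at least 4 bases that are each C or T, on the gene's own strand. It was met by 13 of the 63 members (20.6%), against 3.01% of all genes with a promoter in the table. A wider search, for at least 7 consecutive C or T bases lying within 10 bases of the start, was met by 34 of the 63 members (54.0%), against 22.5% of all genes, and overlaps the first. A match describes the annotated start and not the start used in these cells. Each line below gives 40 bases before the annotated start and the first 10 bases after it, with the pyrimidine run from the start in capitals.
Rps18: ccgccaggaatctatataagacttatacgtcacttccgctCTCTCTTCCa
Rplp2: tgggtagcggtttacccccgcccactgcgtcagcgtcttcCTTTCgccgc
Rps10: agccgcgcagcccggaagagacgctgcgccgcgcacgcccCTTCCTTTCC
Rpl35a: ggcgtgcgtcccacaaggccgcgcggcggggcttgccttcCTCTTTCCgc
Rps6: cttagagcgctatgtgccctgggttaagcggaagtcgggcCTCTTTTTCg
Rps27: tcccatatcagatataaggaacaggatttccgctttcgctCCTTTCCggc
The Rps18 stretch lies at chr17:33955656-33955705 on the minus strand and that of Rplp2 at chr7:141447611-141447660 on the plus strand. That of Rps10 lies at chr17:27635235-27635284 on the minus strand, that of Rpl35a at chr16:33056442-33056491 on the plus strand, that of Rps6 at chr4:86857358-86857407 on the minus strand and that of Rps27 at chr3:90213639-90213688 on the minus strand. These genes also share a compact build. In the GENCODE vM21 annotation, the median transcript of the 72 kept members with a coding sequence was 816 bases long with 5 exons, against 2867 bases and 9 exons for 9672 other tested genes. Small nucleolar RNA genes, whose products guide the modification of ribosomal RNA, lay inside 28 of the 72 (38.9%), against 1.55% of the other tested genes.

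Gene reads numbered 5090345 to 7093163 per library. The 8 genes that mark the gate (Cd3d, Cd3e, Cd3g, Cd247, Cd8a, Cd8b1, Ptprc and Klrg1) summed to 8566 to 10161 CPM (gene reads scaled to a common library total) in CD11c+ libraries and 8784 to 9442 in CD11c- libraries. Itgax, which encodes CD11c, was read at 357, 212, 198 and 204 CPM in CD11c+ libraries, against 9.66, 4.76, 7.90 and 17.97 CPM in CD11c- libraries, with no overlap. Genes with at least 1 read numbered 10482, 10892, 11533 and 12581 in CD11c+ replicates 1 to 4, against 10783, 12322, 12120 and 12294 in CD11c- replicates 1 to 4, so that CD11c+ replicates 1 and 2 and CD11c- replicate 1 were lowest. The 5 genes of cells that the gate leaves out (Cd4, Klrb1c, Il7r, H2-Ab1 and H2-Aa) summed to 47.3 to 148 CPM in CD11c+ and 24.0 to 61.8 CPM in CD11c- libraries, with Cd4 at most at 1.56 CPM. Each of the 5 had a higher mean in CD11c+ libraries. Most of the sums came from the MHCII genes. H2-Ab1 averaged 51.3 CPM in CD11c+ and 19.8 CPM in CD11c- libraries, and H2-Aa 31.8 and 10.5 CPM. Both overlapped between the groups (edgeR unadjusted p = 0.0077 and 0.0172, adjusted p = 0.923 and 0.990). The 9 dendritic cell genes, Itgax among them, summed to 228 to 381 CPM in CD11c+ and 20.8 to 60.8 CPM in CD11c- libraries. Most of the CD11c+ sums was Itgax, the gene of the sort marker. Ccr7, the next highest, overlapped, with 16.2 to 19.6 CPM in CD11c+ and 11.1 to 50.2 CPM in CD11c- libraries. Each of the rest had at most 4.99 CPM in any library. Summed markers of other liver cells overlapped between the groups. The 13 monocyte and Kupffer cell genes summed to 93.9 to 372 CPM in CD11c+ and 94.7 to 203 CPM in CD11c- libraries, and the 7 neutrophil genes to 2.27 to 273 CPM in CD11c+ and 6.16 to 106 CPM in CD11c- libraries, with Mpo and Elane at 0 throughout. The 12 hepatocyte genes summed to 0.978 to 41.5 CPM in CD11c+ and 2.79 to 37.2 CPM in CD11c- libraries, with Apob at 0. The part of other cells in the results below was not tested.

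Ribosomal protein genes took a slightly smaller mean share of gene reads in CD11c+ libraries, but the groups overlapped and the spread was wide among CD11c+ libraries. The 84 members held 1.36, 1.28, 1.72 and 1.502% of gene reads in CD11c+ replicates 1 to 4, against 1.66, 1.54, 1.57 and 1.74% in CD11c- replicates 1 to 4. CD11c+ replicates 1 and 2 lay below every CD11c- library, replicate 4 just below the lowest of them, and replicate 3 above all but the highest. The mean was 1.46% ± 0.192 in CD11c+ and 1.63% ± 0.0888 in CD11c- libraries (SD, n = 4 each). The 95% Wilson interval of a single library's share reached at most 0.0108 percentage points to each side, which covers counting error only. The mean difference of -0.16 percentage points became -0.10 without CD11c+ replicate 2 and -0.25 without CD11c+ replicate 3. It was -0.0058 without CD11c+ replicates 1 and 2 and CD11c- replicate 1, the 3 libraries with the fewest detected genes, whose part in it was not tested.

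A score per library, the mean log2 CPM over the 73 kept members, was 5.35, 5.43, 5.71 and 5.63 in CD11c+ replicates 1 to 4 and 5.70, 5.54, 5.55 and 5.67 in CD11c- replicates 1 to 4. Its mean was 5.53 ± 0.17 in CD11c+ and 5.61 ± 0.08 in CD11c- libraries (SD, n = 4 each), a difference of -0.09 that is smaller than the SD within CD11c+ libraries. CD11c+ replicate 3 had the highest score and CD11c+ replicate 1 the lowest. Leaving out the 3 libraries in which the fewest genes were detected (CD11c+ replicates 1 and 2, CD11c- replicate 1) the difference turned to 0.08. This set was chosen after seeing the data. It holds the lowest scores of the CD11c+ group and the highest of the CD11c- group, so the difference had to rise without it. The number of detected genes thus moved with the score in those CD11c+ libraries and not in CD11c- replicate 1, which had few detected genes and a high score, and its part in the result was not tested. As in any bulk library, fewer cells that express a gene and less of its RNA per cell cannot be told apart.

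Within a library the members moved together. Of the 52 members of at least 10 mean CPM, 6, 5, 47 and 22 lay above their own mean over all libraries in CD11c+ replicates 1 to 4, against 37, 24, 26 and 42 in CD11c- replicates 1 to 4. Over the 8 libraries, the median Pearson correlation of log2 CPM between pairs of the 29 members of at least 100 CPM was 0.72, and 98.03% of the pairs were positive. The same median over pairs of all 2233 tested genes of that level was 0.01, with 50.5% positive. These correlations describe 8 libraries that share their scaling and depth, and carry no test. At 10 to 100 CPM the median within-group SD of log2 CPM was 0.23 over 23 members and 0.38 over 5749 tested genes. At 100 CPM or more it was 0.20 for both members and all genes, so the members varied as much as other genes of that level.

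**Figure D1:**
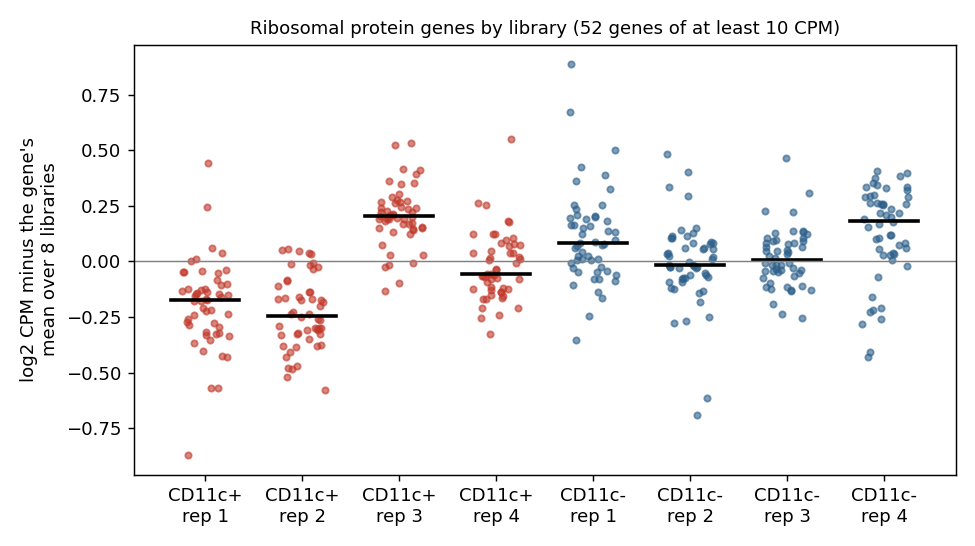
Each point is a ribosomal protein gene of at least 10 mean CPM (52 genes), plotted for each library as its log2 CPM minus its mean over the 8 libraries, with the median as a black line. The medians are -0.17, -0.24, 0.20 and -0.06 in CD11c+ replicates 1 to 4 and 0.08, -0.02, 0.00 and 0.18 in CD11c- replicates 1 to 4, so whole libraries shift up or down and the groups overlap.

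The counted level of a member went with how much of its sequence is its own. Reads were 50 bases long, and in the deposited tables reads placed at more than 1 site stand in a summary row and not with any gene. That row made up 50.3 to 53.6% of the sum of all rows. It may count a read once for each of its sites, so this is not a share of reads. For each of the 83 members with an annotated coding sequence, every 50-base window of that sequence was looked up in the transcripts of all other GENCODE vM21 genes. In 29 members every window was also found in another gene, usually a pseudogene, and these had a median of 3.63 CPM, with 21 under 10 CPM and 0 at 100 CPM or more. In the 15 members with less than 50% of windows shared the median was 356 CPM, and 11 reached 100 CPM. Between them, the 30 members with 80% to under 100% shared had a median of 72.9 CPM and the 9 with 50% to under 80% a median of 205 CPM. Over the 83 members, CPM per kb of coding sequence and the percentage of shared windows had a Spearman correlation of -0.62, a description across genes that share libraries and annotation.

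The coding sequences of Rps27, its paralogue Rps27l and Rpl41 show the range, with bases that lie in no shared window in capitals and all others in lower case. Rps27 and Rps27l encode small subunit proteins of equal length, from 252 coding bases each (stop codon not included). All windows of Rps27 and 48.3% of those of Rps27l were shared.
Rps27: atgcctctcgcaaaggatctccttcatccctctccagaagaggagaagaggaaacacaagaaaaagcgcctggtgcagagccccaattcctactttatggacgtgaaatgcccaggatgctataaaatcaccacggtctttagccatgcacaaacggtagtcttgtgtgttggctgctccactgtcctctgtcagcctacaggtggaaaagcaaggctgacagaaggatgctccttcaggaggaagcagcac
Rps27l: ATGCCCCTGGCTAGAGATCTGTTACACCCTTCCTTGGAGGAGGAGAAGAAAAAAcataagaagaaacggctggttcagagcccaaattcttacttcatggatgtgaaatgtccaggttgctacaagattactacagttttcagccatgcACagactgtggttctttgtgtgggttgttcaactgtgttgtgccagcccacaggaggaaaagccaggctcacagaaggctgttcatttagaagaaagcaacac
Rpl41: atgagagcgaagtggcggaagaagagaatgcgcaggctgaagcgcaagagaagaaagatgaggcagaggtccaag
Rps27 had a mean of 2.56 ± 1.14 CPM in CD11c+ and 2.89 ± 0.70 CPM in CD11c- libraries, while Rps27l had 174 ± 42.3 CPM in CD11c+ and 169 ± 16.7 CPM in CD11c- libraries (SD, n = 4 each). Rpl41, the shortest member with 75 coding bases, encodes a small basic protein of the large subunit. It was an exception, with every coding window shared and yet 84.1 ± 13.1 CPM in CD11c+ and 94.1 ± 15.8 CPM in CD11c- libraries (SD, n = 4 each). Reads in the untranslated parts of a message were not part of the window search.

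**Figure D2:**
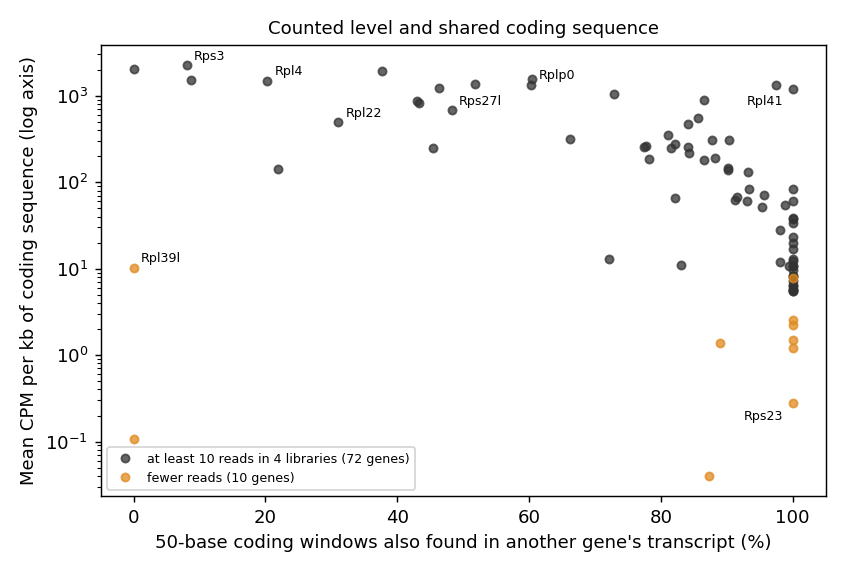
Each point is a ribosomal protein gene with an annotated coding sequence, plotted by the percentage of its 50-base coding windows found in another gene's transcript and its mean CPM per kb of coding sequence over 8 libraries (log axis). Kept members are dark and members with fewer reads orange, Rpl10l with 0 reads is not drawn, and most of the lowest levels stand at 100% shared.

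Per length, the 72 kept members with a coding sequence ran from 5.48 to 2254 CPM per kb of coding sequence, a 411-fold range in genes whose proteins are needed in near-equal numbers. The 36 kept members with at least 50 unshared windows spanned 206-fold on that scale, with an upper quartile 6.44 times the lower. Divided instead by the number of unshared windows, their levels spanned 85.2-fold, and the upper quartile was 2.18 times the lower. The absolute level of a member with few unshared windows is therefore uncertain. The reads that such a member shares with other genes could not be followed by group.

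Among the members with the most reads were Rpl4, Rps3, Rplp0, Rpl8, Rpl13a, Rpl32, Rps14 and Rplp1. All 8 had a negative log2 fold change (CD11c+ over CD11c-), from -0.29 for Rps14 to -0.08 for Rpl8, and none passed the test. Rpl4, which lines the tunnel through which the new protein leaves, was highest and among the steadiest, with 1868, 1664, 2035 and 1682 CPM in CD11c+ and 1920, 2011, 1825 and 1966 CPM in CD11c- libraries. Its log2 fold change was -0.09 (SE 0.08, edgeR adjusted p = 0.991), and the highest of all its values was a CD11c+ library.

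No ribosomal protein gene passed the test between the groups. By edgeR's quasi-likelihood test with Benjamini-Hochberg adjustment over 10073 genes at 0.05, 0 of the 72 tested members were called, against a background of 0.0298% of all tested genes called higher and 0.0199% called lower in CD11c+ libraries (0.0496% in either direction). DESeq2 and limma voom with quality weights also called 0 members. A single member, Rplp0, had an unadjusted p under 0.05, which is 1 of 72 against 4.7% of all genes (2.26% lower and 2.43% higher in CD11c+ libraries), and the lowest adjusted p was 0.990. The fold changes were small but mostly of the same sign. Of the 72, 55 (76.4%) had a negative log2 fold change, against 48.3% of all tested genes, and the median was -0.13 against 0.01 over all genes.

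The share of negative signs was higher at higher read levels. Of the 29 members of at least 100 CPM, 27 had negative log2 fold changes (median -0.14), against 51.7% of all 2233 tested genes of that level, and the exceptions were Rpl7l1 (0.09) and Rps27l (0.04). Of the 23 members from 10 to 100 CPM 17 were negative. Of the 20 below 10 CPM, whose errors were wider, 11 (55%) were, against 48.6% of all 2091 tested genes under 10 CPM. The subunits were alike, with 32 of 42 large subunit members negative (median -0.11) and 23 of 30 small subunit members negative (median -0.14). As the members move together within a library, these counts are not independent of each other. Without the 3 libraries in which the fewest genes were detected, a set chosen after seeing the data, 27 of 72 were negative and the median was 0.04. By the scores given above, CD11c+ replicates 1 and 2 were the lowest of their group and CD11c- replicate 1 the highest of its own. Leaving out single libraries, the median was nearest 0 without CD11c+ replicate 2 (-0.07) or CD11c+ replicate 1 (-0.07), and farthest without CD11c+ replicate 3 (-0.20).

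**Figure D3:**
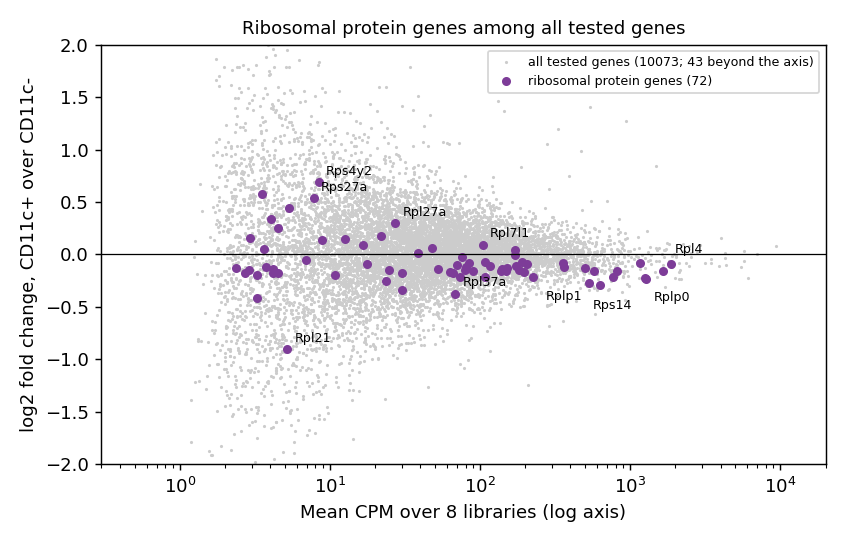
The log2 fold change (CD11c+ over CD11c-) is plotted against mean CPM over 8 libraries (log axis) for all tested genes (grey) and the 72 tested ribosomal protein genes (purple); a few grey points lie beyond the vertical axis. Of the 29 ribosomal protein genes of at least 100 CPM, 27 lie below 0, the lowest of them at -0.29 (Rps14), inside the spread of the other genes.

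The P stalk of the large subunit, built from Rplp0, Rplp1 and Rplp2, draws the elongation factors to the ribosome. Rplp0, its base, had 1155, 1023, 1296 and 1212 CPM in CD11c+ libraries, against 1358, 1323, 1328 and 1516 CPM in CD11c- libraries. All 4 CD11c+ values lay below all 4 CD11c- values, with CD11c+ replicate 3 closest. The log2 fold change was -0.24 (SE 0.09, edgeR unadjusted p = 0.0245, adjusted p = 0.990), so it did not pass over all genes, and without the 3 libraries it was -0.16 with an unadjusted p of 0.235.

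Rplp1 had 407, 404, 590 and 522 CPM in CD11c+ and 577, 554, 577 and 618 CPM in CD11c- libraries, with a log2 fold change of -0.27 (SE 0.13, edgeR adjusted p = 0.991). CD11c+ replicates 1 and 2 stood below the rest, while replicate 3 lay among the CD11c- values. Rplp2, the partner of Rplp1 in the stalk's dimers, had 88.4, 98.1, 120 and 118 CPM in CD11c+ and 128, 97.6, 107 and 112 CPM in CD11c- libraries, with a log2 fold change of -0.07 (SE 0.15). Its groups overlapped almost entirely, and the sign turned with limma voom (0.07).

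Among small subunit members, Rps3, which sits at the entry of the messenger RNA channel, had 1442, 1305, 1901 and 1560 CPM in CD11c+ and 1825, 1561, 1667 and 1887 CPM in CD11c- libraries. Its highest value was again CD11c+ replicate 3, and the log2 fold change was -0.16 (SE 0.11).

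Rps14, a protein of the small subunit platform whose loss of a gene copy underlies the anaemia of the human 5q- syndrome, had 510, 442, 708 and 586 CPM in CD11c+ and 704, 630, 622 and 799 CPM in CD11c- libraries. CD11c+ replicate 3 lay inside the CD11c- range and the other CD11c+ libraries below it. The log2 fold change was -0.29 (SE 0.14, edgeR adjusted p = 0.991).

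Rps19, the gene most often mutated in human Diamond-Blackfan anaemia, had 146, 115, 167 and 152 CPM in CD11c+ and 164, 143, 146 and 180 CPM in CD11c- libraries, and a log2 fold change of -0.13 (SE 0.15). Rps6, the classical target of the S6 kinases downstream of mTORC1, was counted at 11.3, 16.6, 24.6 and 15.4 CPM in CD11c+ and 17.3, 22.6, 19.9 and 12.5 CPM in CD11c- libraries, with every coding window shared. The groups overlapped for both genes. Rps6 had a log2 fold change of -0.09 (SE 0.33) and was among the most variable members, with a within-group SD of 0.41 on the log2 scale.

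Rpsa, also known as the laminin receptor, had 48.9 ± 13.5 CPM in CD11c+ and 46.8 ± 7.76 CPM in CD11c- libraries (SD, n = 4 each; log2 fold change 0.06, and -0.02 with limma voom). Rps16, whose tail reaches toward the transfer RNA in the P site, was the most variable member of at least 10 CPM, with 10.6 to 23.4 CPM in CD11c+ and 9.66 to 22.0 CPM in CD11c- libraries. Rps10, which is ubiquitinated when ribosomes collide, had 26.8, 22.3, 29.6 and 27.9 CPM in CD11c+ and 37.3, 26.2, 34.8 and 36.5 CPM in CD11c- libraries. Only CD11c- replicate 2 fell within the CD11c+ range, and the log2 fold change was -0.34 (SE 0.23, edgeR adjusted p = 0.991).

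In the large subunit, Rpl8, which lies next to the peptidyl transferase centre, had 921, 1017, 1337 and 1260 CPM in CD11c+ and 1086, 1113, 1176 and 1414 CPM in CD11c- libraries, with a log2 fold change of -0.08 (SE 0.13). The CD11c- values fell between the lower and the higher pair of CD11c+ values, apart from CD11c- replicate 4. Rpl13a, which in human monocytes also acts in a translation-silencing complex, had 751, 619, 986 and 745 CPM in CD11c+ and 1084, 679, 882 and 809 CPM in CD11c- libraries (log2 fold change -0.16, SE 0.16). Rpl32, another large subunit protein, had 620 to 888 CPM in CD11c+ and 718 to 965 CPM in CD11c- libraries (log2 fold change -0.22, SE 0.13). All 3 overlapped between the groups.

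Rpl5 and Rpl11 travel with 5S ribosomal RNA and, when assembly fails, bind Mdm2 and release p53. Both were counted at a low level, and every coding window of either was shared. Rpl5 had 9.78, 8.38, 12.6 and 9.51 CPM in CD11c+ and 19.5, 10.4, 8.65 and 7.75 CPM in CD11c- libraries (log2 fold change -0.20, SE 0.41), with CD11c- replicate 1 standing apart. Rpl11 had 4.89, 3.49, 1.78 and 2.18 CPM in CD11c+ and 3.53, 3.502, 2.45 and 1.59 CPM in CD11c- libraries (log2 fold change 0.15, SE 0.68). The interval of the Rpl11 change is so wide that these counts cannot show its direction.

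By the SD of log2 CPM over all 8 libraries, the steadiest members of at least 10 CPM were Rpl4 and the large subunit proteins Rpl18, Rpl6 and Rpl23, the last of which lies at the subunit interface. Rpl18 had 166 ± 11.6 CPM in CD11c+ and 179 ± 19.4 CPM in CD11c- libraries, Rpl6 had 112 ± 10.99 CPM in CD11c+ and 120 ± 11.7 CPM in CD11c- libraries, and Rpl23 had 74.95 ± 9.92 CPM in CD11c+ and 76.1 ± 3.24 CPM in CD11c- libraries (SD, n = 4 each). Their log2 fold changes were -0.11, -0.11 and -0.02. Rpl38, needed in mouse embryos for the translation of Hox messages, had 0.587, 2.44, 4.63 and 7.95 CPM in CD11c+ and 4.83, 3.08, 6.21 and 3.70 CPM in CD11c- libraries, so the CD11c+ range enclosed every CD11c- value.

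The groups did not overlap for 3 members, 4.17% of the 72, against 3.44% of all tested genes, a share near the background. Rplp0 was lower in all CD11c+ libraries, as given above, where 1.85% of all genes were, and Rps27a and Rpl27 were higher, where 1.6% of all genes were. Rps27a, made as a fusion with ubiquitin, had 7.23, 8.03, 8.37 and 13.4 CPM in CD11c+ and 6.68, 5.18, 7.15 and 6.52 CPM in CD11c- libraries. The lowest CD11c+ value (7.23 CPM) stood just above the highest CD11c- value (7.15 CPM), and the log2 fold change of 0.54 (SE 0.44, edgeR adjusted p = 0.991) did not pass. Rpl27, a large subunit protein, had 5.47, 7.51, 5.52 and 6.08 CPM in CD11c+ and 4.46, 5.04, 3.57 and 4.93 CPM in CD11c- libraries (log2 fold change 0.45, SE 0.52, edgeR adjusted p = 0.991). Every coding window of both genes was shared with other genes.

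**Figure D4:**
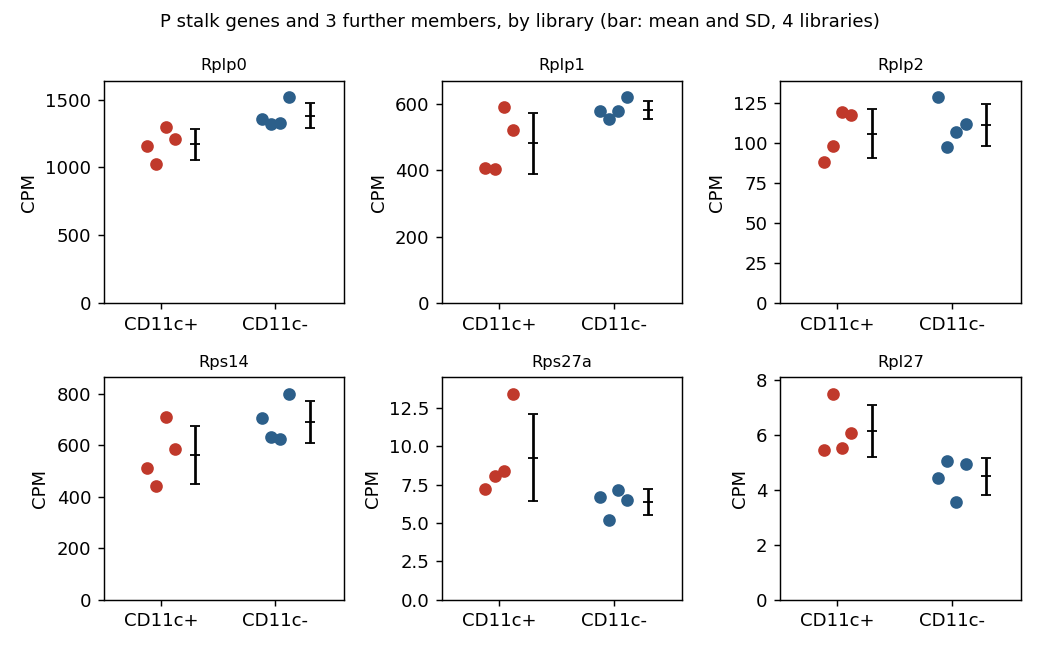
CPM in each library (points, 4 per group) with mean and SD (bar) for the P stalk genes Rplp0, Rplp1 and Rplp2 and for Rps14, Rps27a and Rpl27, in CD11c+ (left in each panel) and CD11c- libraries. The groups are apart for Rplp0 (lower in CD11c+), Rps27a and Rpl27 (higher in CD11c+) and overlap for the rest, and none passed the test.

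Among members of at least 10 CPM, the largest positive log2 fold changes were those of Rpl27a (0.30), Rpl35a (0.17), Rpl31 (0.15) and Rpl7l1 (0.09). Rpl27a, a large subunit protein, had 36.8, 26.7, 31.0 and 25.6 CPM in CD11c+ and 26.7, 24.5, 23.5 and 22.9 CPM in CD11c- libraries, overlapping only through CD11c- replicate 1. Rpl35a, mutated in some human families with Diamond-Blackfan anaemia, had 23.0 ± 2.86 CPM in CD11c+ and 20.4 ± 3.71 CPM in CD11c- libraries, and Rpl31, which lies at the tunnel's exit, had 13.2 ± 1.99 CPM in CD11c+ and 11.9 ± 0.94 CPM in CD11c- libraries (SD, n = 4 each). The largest negative change at this level was that of Rpl37a (-0.37, SE 0.24), a zinc-binding large subunit protein with 36.0, 53.4, 88.4 and 60.8 CPM in CD11c+ and 85.0, 70.3, 69.98 and 84.0 CPM in CD11c- libraries. Its highest and its lowest value both came from CD11c+ libraries. The adjusted p was 0.991 or 0.992 by edgeR for each of these genes.

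Below 10 CPM the changes were wider and so were their errors. Rpl21, a large subunit protein, had the most negative one (-0.90, SE 0.62), with 1.96, 3.67, 1.96 and 6.86 CPM in CD11c+ and 4.27, 9.66, 5.27 and 7.93 CPM in CD11c- libraries. The most positive one was that of Rps4y2 (0.69, SE 0.61), with 7.63, 10.3, 6.95 and 16.7 CPM in CD11c+ and 3.71, 1.82, 6.40 and 13.9 CPM in CD11c- libraries. In both genes the groups overlapped. Rps4y2 matches the name rule, but GENCODE vM21 carries it as Rps4l, a transcribed processed pseudogene with no coding sequence. These low genes were singled out after their values were seen.

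Some members have a paralogue that can take their place in the ribosome or is made in other tissues. Rpl22, which mouse αβ T cells need to develop, had 183, 157, 220 and 178 CPM in CD11c+ and 213, 186, 172 and 204 CPM in CD11c- libraries. Its paralogue Rpl22l1 had 69.99, 69.5, 89.6 and 69.8 CPM in CD11c+ and 90.2, 84.3, 82.0 and 74.7 CPM in CD11c- libraries. CD11c+ replicate 3 was highest in Rpl22 and stood apart from its group in Rpl22l1.

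The ratio of the paralogues' reads within a library does not depend on scaling. The log2 ratio of Rpl22l1 to Rpl22 was -1.30 ± 0.09 in CD11c+ and -1.22 ± 0.17 in CD11c- libraries (SD, n = 4 each), a difference of -0.08 with p = 0.457 in a two-sided exact permutation test (adjusted p = 0.600). The log2 ratio of Rps27l to Rps27 was 6.10 ± 0.75 in CD11c+ and 5.85 ± 0.44 in CD11c- libraries (difference 0.25, exact permutation p = 0.600, adjusted p = 0.600). That ratio rests on the low counts of Rps27, all of whose coding windows were shared, and it turned to -0.01 without CD11c+ replicate 3. The log2 ratio of Rpl7l1, a relative of Rpl7, to Rpl7 was -0.88 ± 0.20 in CD11c+ and -1.07 ± 0.17 in CD11c- libraries (difference 0.19, exact permutation p = 0.229, adjusted p = 0.600). None of the 3 differed past the threshold, and the smallest p that 4 against 4 libraries allow is 0.0286.

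**Figure D5:**
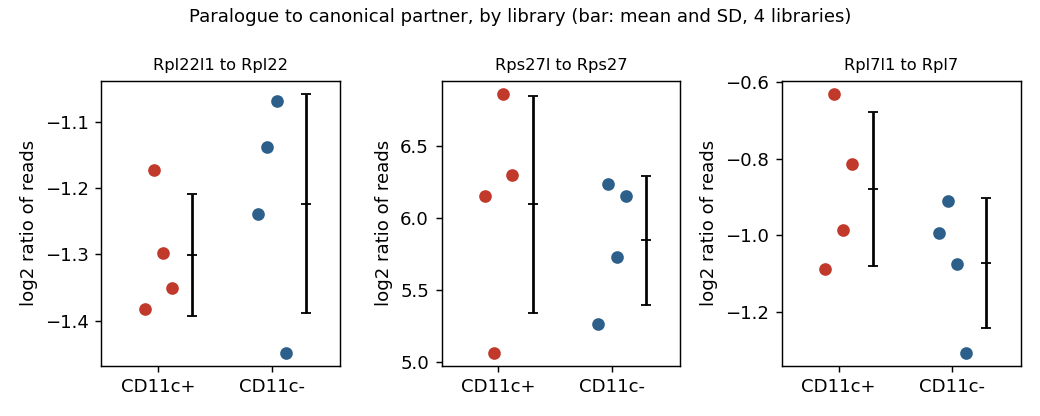
The log2 ratio of reads of a paralogue to reads of its partner (each plus 0.5) in each library (points) with mean and SD (bar, 4 libraries) for CD11c+ (left) and CD11c- libraries. The groups overlap in each of the 3 pairs, with differences of -0.08, 0.25 and 0.19.

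For the other 4 of the 7 listed pairs 1 partner had too few reads. Rpl3, which reaches the peptidyl transferase centre, had 82.4 ± 8.45 CPM in CD11c+ and 87.3 ± 14.3 CPM in CD11c- libraries (SD, n = 4 each), while its muscle paralogue Rpl3l had 0.891 and 0.156 CPM in CD11c+ replicates 3 and 4 and 0 reads in the other 6 libraries. Rpl39, a protein of the exit tunnel, had 131 ± 36.3 CPM in CD11c+ and 146 ± 4.05 CPM in CD11c- libraries, while Rpl39l, best known from testis, had 1.45 ± 1.20 CPM in CD11c+ and 1.67 ± 1.34 CPM in CD11c- libraries (SD, n = 4 each). No coding window of Rpl3l or Rpl39l was shared. Rpl10, a protein that joins the large subunit late, had 3.70 ± 1.54 CPM in CD11c+ and 3.57 ± 1.38 CPM in CD11c- libraries with every coding window shared. Its autosomal copy Rpl10l, known from mouse spermatocytes, had 0 reads in all libraries, which allows up to 0.0646 CPM over the pooled reads of the 8 libraries. Rpl36al had 78.4 ± 9.32 CPM in CD11c+ and 79.7 ± 6.19 CPM in CD11c- libraries, and its partner Rpl36a had 1.07 ± 0.57 CPM in CD11c+ and 0.55 ± 0.27 CPM in CD11c- libraries (SD, n = 4 each).

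Among the 11 members under the read minimum were Rpl10l, Rpl23a, Rpl24, Rpl26, Rpl28, Rpl36a, Rpl39l, Rpl3l, Rps23 and Rps28. Apart from the tissue paralogues Rpl10l, Rpl39l and Rpl3l they encode core ribosomal proteins, and 87.3% to 100% of their coding windows were shared with other genes. Rps23, a protein of the decoding centre, averaged 0.098 CPM in CD11c+ and 0.14 CPM in CD11c- libraries. Rps28 came closest to the minimum, with 2.15, 3.14, 2.14 and 1.247 CPM in CD11c+ and 1.30, 0.84, 1.505 and 0.705 CPM in CD11c- libraries. Rps29, just inside the minimum, averaged 1.70 CPM in CD11c+ and 1.53 CPM in CD11c- libraries and was kept but not tested. Such values say little about the messages of these genes in the cells.

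The genes around the ribosome were not called either. Of 61 tested genes of ribosome assembly and ribosomal RNA processing 0 passed by edgeR, by DESeq2 or by limma voom, and 2 (Riok1 and Tsr1) were under 0.05 before adjustment by edgeR, a share of the 61 below the 4.7% of all tested genes. Their log2 fold changes were positive in 42 of 61, with a median of 0.11 against 0.01 over all genes, and in 31 of 61 with a median of 0.00 once the 3 libraries with few detected genes were left out. Nucleolin (Ncl), a nucleolar organizer of ribosomal RNA synthesis, had 762 ± 130 CPM in CD11c+ and 674 ± 143 CPM in CD11c- libraries. Emg1, an enzyme that methylates 18S ribosomal RNA, had 259 ± 20.1 CPM in CD11c+ and 294 ± 30.2 CPM in CD11c- libraries. Riok1, a kinase of late small subunit assembly, had 56.9 ± 9.66 CPM in CD11c+ and 37.4 ± 2.05 CPM in CD11c- libraries (SD, n = 4 each), with no overlap, as in 3.44% of all tested genes (log2 fold change 0.60, SE 0.19, edgeR adjusted p = 0.925).

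Of 20 elongation factors and other messages known for a TOP start, 9 had negative log2 fold changes, the median was 0.01, and 0 passed by edgeR, DESeq2 or limma voom, nor had any an unadjusted p under 0.05 by edgeR (0 of 20). Eef2, which moves the ribosome along the message, had 2506 ± 98.3 CPM in CD11c+ and 2545 ± 145 CPM in CD11c- libraries. Eef1a1, which brings in transfer RNA, had 1978 ± 184 CPM in CD11c+ and 2225 ± 64.8 CPM in CD11c- libraries (SD, n = 4 each; log2 fold change -0.17, SE 0.08, edgeR adjusted p = 0.991). Among 35 initiation and termination factors the median was 0.04, with Eif5a at 1005 ± 173 CPM in CD11c+ and 902 ± 111 CPM in CD11c- libraries and Eif4g2 at 748 ± 68.6 CPM in CD11c+ and 680 ± 55.9 CPM in CD11c- libraries (SD, n = 4 each). Of these 35, 0 had an unadjusted p under 0.05 by edgeR, and 0 were called by DESeq2 or limma voom.

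RNA polymerase I, which transcribes ribosomal RNA, had 18 tested genes with a median of 0.01. Its upstream factor Ubtf had 186 ± 6.90 CPM in CD11c+ and 192 ± 12.8 CPM in CD11c- libraries, and its subunit Polr1d had 161 ± 29.6 CPM in CD11c+ and 182 ± 11.5 CPM in CD11c- libraries (SD, n = 4 each). Of 32 genes of mTORC1 and Myc control, the median was 0.08 (0.23 without the 3 libraries). Rps6ka1, a kinase of Rps6, had 487 ± 47.4 CPM in CD11c+ and 492 ± 23.0 CPM in CD11c- libraries, and the amino acid transporter Slc1a5 had 253 ± 49.7 CPM in CD11c+ and 257 ± 8.18 CPM in CD11c- libraries. Of the 13 genes of the p53 response the median was 0.08 (-0.11 without the 3 libraries). Trp53 had 241 ± 64.5 CPM in CD11c+ and 245 ± 32.3 CPM in CD11c- libraries, and Bax, a death effector, had 230 ± 18.7 CPM in CD11c+ and 250 ± 25.4 CPM in CD11c- libraries. Among 17 genes of ribosome rescue the median was 0.02, with G3bp1, which helps rescue stalled small subunits, at 386 ± 53.7 CPM in CD11c+ and 377 ± 47.2 CPM in CD11c- libraries and Edf1, a sensor of collided ribosomes, at 284 ± 14.1 CPM in CD11c+ and 297 ± 32.4 CPM in CD11c- libraries (SD, n = 4 each). In these lists 0 genes were called by edgeR, by DESeq2 or by limma voom. Before adjustment 1 polymerase I gene, 3 of the mTORC1 and Myc genes, 0 of the p53 genes and 1 rescue gene were under 0.05 by edgeR, 5 of 80 tested against 4.7% of all tested genes. They are named here after their values were seen. Eif4ebp1, a translation repressor that mTORC1 inactivates, had 10.7 ± 2.61 CPM in CD11c+ and 4.26 ± 1.63 CPM in CD11c- libraries, and the amino acid transporter Slc7a5 had 11.1 ± 2.22 CPM in CD11c+ and 5.40 ± 1.76 CPM in CD11c- libraries. Mlst8, a subunit of mTORC1, had 33.1 ± 5.96 CPM in CD11c+ and 45.9 ± 5.33 CPM in CD11c- libraries. The polymerase I factor Taf1c had 21.1 ± 5.68 CPM in CD11c+ and 38.3 ± 8.93 CPM in CD11c- libraries, and Ltn1, a ubiquitin ligase of stalled ribosomes, had 98.7 ± 23.5 CPM in CD11c+ and 58.9 ± 19.95 CPM in CD11c- libraries (SD, n = 4 each). Each of these 5 did not overlap between the groups, and neither did Taf1d, another polymerase I factor (28.4 to 37.4 CPM in CD11c+ and 21.0 to 28.0 CPM in CD11c- libraries), or Mtor itself (37.7 to 44.4 CPM in CD11c+ and 29.2 to 37.1 CPM in CD11c- libraries). That is 7 of 80, against 3.44% of all tested genes, and none passed after adjustment over all genes. These 80 leave out the lists of the paragraphs above, where groups without overlap were fewer. They were seen in 1 of 61 assembly genes (Riok1), 0 of 20 elongation factor and TOP genes and 0 of 35 initiation and termination factors. Among the ribosomal proteins outside the name rule they were seen in 0 of 4. The 4 ribosomal proteins that the name rule misses had a median of 0.00, and the most abundant of them, the scaffold protein listed as Gnb2l1 and now called Rack1, had 1005 ± 176 CPM in CD11c+ and 984 ± 84.5 CPM in CD11c- libraries (log2 fold change 0.03, SE 0.12).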

How the data were processed

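Per the labels' protocols, RNA of the sorted cells was amplified with a modified SMART-seq2 protocol, made into Nextera XT libraries and sequenced as single 50-base reads. Per the submitters' processing notes, bcl2fastq, TopHat2 2.0.8b, HTSeq and the build mm9 were used. Neither the annotation nor the strand setting is stated there, so which genes were treated as overlapping is not known. A summary row of ambiguous reads, given to no gene, held 25744 to 36807 reads per library. Each deposited file lists raw counts of reads by gene symbol, with 22609 genes and 5 summary rows that stayed out of library sizes and tests. The no-feature row held 29.5 to 32.9% of the sum of all rows. The row of alignments at several places held 50.3 to 53.6%, and may count a read more than once.

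The quasi-likelihood test of edgeR 4.0.16 (R 4.3.3, filterByExpr, TMM, glmQLFit, glmQLFTest) compared CD11c+ with CD11c- libraries. The p-values were Benjamini-Hochberg adjusted over all 10073 genes that passed the filter. The step was tested on simulated data, in 3 simulations with changed genes of any read level. It called 0.667% of 1.25-fold, 4.67% of 1.5-fold, 31.3% of 2-fold and 68.7% of 4-fold changes, so small changes were mostly missed. CPM are scaled by TMM factors; the score adds a prior count of 2. SE is the log2 fold change divided by the root of F. Paralogue ratios used SciPy 1.17.1 with 0.5 added to each count. Alternatives were RLE factors, library size only, TMM from genes outside the members, 2 other filters, a replicate block, each library left out, DESeq2 1.42.0, voom in limma 3.58.1 and edgeR with legacy=FALSE. A fit that leaves out the 3 libraries in which the fewest genes were detected was chosen after seeing the data. The lowest chi-square per degree of freedom between libraries of a group was 9.43, which is more than counting error gives. Each library was treated as 1 sample, but this value cannot tell separate mice from separate amplifications.

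Named members are the 10 with most reads, those without overlap between groups, the 4 largest changes in each direction and the 4 largest and 4 smallest SDs at 10 CPM or more, the paralogue pairs, those under the read minimum and a set with known roles; per pathway list, the 2 with most reads. Of the members that this rule takes, 3 are not reported here. Members and lists were chosen with earlier results of these data known. Sequences are from RefSeq (GRCm38.p6) and GENCODE vM21 (GRCm38) and were matched by symbol; no coordinate was carried from or to mm9.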

Additional observations from a re-analysis of the deposited data

Results flagged for a closer look

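In 3 of 82 sets of 4 libraries tested (kept members taken by the naming rule, the score, the read share and the paralogue ratios, in each group), a single library stood farther from the others than Dixon's 95% critical value allows; chance flags about 1 in 20 such sets. Rpl6 had 138 CPM in CD11c- replicate 4, against 113 to 116 CPM in the other CD11c- libraries. Rpl23 had 71.3 CPM in CD11c- replicate 1, below the 77.2 to 78.2 CPM of the other CD11c- libraries. Rpl22l1 had 89.6 CPM in CD11c+ replicate 3, above the 69.5 to 69.99 CPM of the other CD11c+ libraries. The cause of these values was not tested.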

How the results depend on the processing

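No member was called under any alternative, the replicate block included (0 called, median -0.13, 55 negative), while calls over all genes ran from 1 to 29. The normalizations, filters, DESeq2, limma voom and edgeR with legacy=FALSE kept the median below 0 (-0.14 to -0.05), and the other scalings kept the score difference below 0. Leaving out the 3 libraries in which the fewest genes were detected, the median was 0.039, 27 of 72 members were negative, the score difference was 0.085 and the difference in percent of gene reads was -0.0058; the cause was not tested. Under it the log2 fold change was 0.012 for Rps3, 0.063 for Rpl8, 0.12 for Rpl13a, 0.30 for Rpl5, 0.11 for Rps6, 0.090 for Rpl23, 0.079 for Rpl22, 0.040 for Rpl7, 0.061 for Rpl39, 0.096 for Rpl36al, 0.020 for Rps19, -0.35 for Rpl11, 0.16 for Rplp2, 0.54 for Rpl38 and 0.039 for Rpl41, each the opposite sign of the full fit. With limma voom it was 0.039 for Rpl5, 0.013 for Rpl23, 0.024 for Rpl36al, -0.11 for Rpl11, -0.022 for Rpsa, 0.074 for Rplp2 and 0.22 for Rpl38. Leaving out each library in turn, the median ran from -0.20 to -0.07, the negative members from 46 to 58 and the score difference from -0.15 to -0.03. The sign turned in at least 1 such fit for Rpl10 (-0.17 to 0.33), Rpl11 (-0.16 to 0.34), Rpl23 (-0.10 to 0.029), Rpl3 (-0.16 to 0.0086), Rpl36al (-0.11 to 0.013), Rpl38 (-0.80 to 0.17), Rpl5 (-0.36 to 0.16), Rpl8 (-0.17 to 0.0073), Rplp2 (-0.14 to 0.0060), Rps16 (-0.11 to 0.27), Rps27l (-0.086 to 0.15), Rps6 (-0.33 to 0.059), Rpsa (-0.14 to 0.17) and the Rps27l to Rps27 ratio (-0.0054 to 0.59).

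Deviations from group means of libraries with the same number correlated at 0.096, 0.167, 0.119 and 0.190. Between libraries with different numbers the values ran from -0.114 to 0.0276, so each library correlated best with its own number. The labels do not say whether equal numbers mark the same mouse. The main test did not use the numbers as pairs, and its p-values leave out any such pairing. The block took the calls over all genes to 13, against 5, and the members with an unadjusted edgeR p under 0.05 to 4, against 1. It called 0 members. Exact paired sign-flip permutation tests of the paralogue ratios gave adjusted exact permutation p = 0.562 (Rpl22l1), 0.750 (Rps27l) and 0.562 (Rpl7l1).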
